A study of Mus musculus with 4 samples.

Results

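The genes of the type 2 cytokines Il4, Il13, Il5 and Il9, together with Il3, Csf2, Areg and Il24, were examined in mouse T cells that were wild-type or labelled as knockout for the transcription factor gene Tbx21. These 8 genes were taken by symbol from a table of 24768 genes, and each symbol matched 1 row. The study compared 2 libraries of wild-type (WT) cDNT cells with 2 libraries of cDNT cells labelled Tbx21-KO, all described as mouse T cells. The series title places the cells among double-negative T cells, and the labels give neither the meaning of the "c" nor an age, strain, treatment or time. The series' design text speaks of a knockdown where the sample labels speak of a knockout, and no label tells which cells or driver the deletion used or whether the libraries of a group came from separate animals or cultures. P-values therefore speak only of how these libraries varied, and that variation could be technical. Values of a pair of libraries are given in the order of their replicate numbers. They are FPKM, fragments per kilobase of gene scaled to the size of the library, which the authors deposited.

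Type 2 cytokines are secreted proteins that helper T cells, innate lymphoid cells, basophils, mast cells and eosinophils use in responses to worms and allergens. In T cells the genes Il4, Il13 and Il5 lie close together on mouse chromosome 11, with Rad50 between Il13 and Il5, and are opened together under the control of GATA3. T-bet, the product of Tbx21, is the factor of the type 1 programme and is known to oppose the type 2 programme in helper T cells. IL-3 and GM-CSF, whose genes Il3 and Csf2 lie further along the same chromosome, act on myeloid cells through a receptor chain shared with IL-5. Amphiregulin, the product of Areg, is a ligand of the epidermal growth factor receptor that type 2 lymphocytes make during tissue repair, and IL-24 belongs to the IL-10 family.

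The windows just upstream of 3 of the genes are shown because these genes carry the findings: Il13 was the most abundant member, Il4 is its neighbour in the same cluster but was far lower, and Il9 had the largest fold change. The sequences are RefSeq windows of 250 bases on GRCm38.p6 that end just before the gene's RefSeq start, written 5′ to 3′ on the gene's strand, all on the minus strand. Il13 is at chr11:53634703-53634952, Il4 at chr11:53618666-53618915 and Il9 at chr13:56482258-56482507. Capitals mark matches, on either strand, to the NFAT core GGAAA, to GATAA, the site of GATA factors, and to TGANTCA, the site of AP-1.
Il13: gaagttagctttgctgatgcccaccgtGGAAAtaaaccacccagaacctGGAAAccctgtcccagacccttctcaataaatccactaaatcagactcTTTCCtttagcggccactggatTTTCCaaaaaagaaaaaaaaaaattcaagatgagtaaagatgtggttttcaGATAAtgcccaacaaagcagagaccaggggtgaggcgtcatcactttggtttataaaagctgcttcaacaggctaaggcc
Il4: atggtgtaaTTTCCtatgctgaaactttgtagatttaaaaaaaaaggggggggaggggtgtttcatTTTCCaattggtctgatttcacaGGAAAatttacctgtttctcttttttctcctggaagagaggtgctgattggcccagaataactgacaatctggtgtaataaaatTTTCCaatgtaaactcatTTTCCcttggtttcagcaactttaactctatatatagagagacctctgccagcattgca
Il9: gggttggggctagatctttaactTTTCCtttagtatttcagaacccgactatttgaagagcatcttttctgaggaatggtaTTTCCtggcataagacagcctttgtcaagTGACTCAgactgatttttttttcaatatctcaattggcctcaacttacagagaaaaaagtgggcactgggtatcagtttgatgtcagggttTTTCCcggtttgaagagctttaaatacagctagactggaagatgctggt
The Il4 window held 5 NFAT core matches, that of Il13 held 4 and that of Il9 held 3. The Il13 window also held 1 match to GATAA, and the Il9 window 1 match to TGANTCA, whereas Il4 had neither. A window was found for 7 of the 8 members. All 7 held GGAAA, against 55.6% of the 32851 windows of all genes, 3 held GATAA, against 22.6%, and 1 held TGANTCA, against 6.75%. The T-box motif AGGTGTNA was in none of the 7 windows and in 2.68% of all. Such matches describe letters in a short window and say nothing of binding. The RefSeq start that sets the Csf2 window lies 232 bases from the gene start in the GENCODE annotation, so this window need not be the promoter that these cells use.

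The label was checked on Tbx21 first. Tbx21 was at 13.2 and 11.7 FPKM in the WT pair and at 2.29 and 2.41 FPKM in the Tbx21-KO pair, so 18.8% of the WT mean was left (log2 fold change -2.01, SE 0.08, limma adjusted p = 8.21e-05). Cd3e, a T cell receptor chain gene, was well expressed, with means of 56.6 FPKM (WT) and 40.0 FPKM (Tbx21-KO), and the coreceptor genes Cd4 and Cd8b1 were low, with WT means of 1.79 and 2.44 FPKM and Tbx21-KO means of 2.02 and 2.92 FPKM. FPKM keep traces of whole reads, from which totals of 23342603 to 24967028 reads per library were implied. Both Tbx21-KO libraries also stood apart in transcripts of other blood cells: the 14 neutrophil markers summed to 10.8 and 13.6 FPKM in WT and to 10536 and 10844 FPKM in the Tbx21-KO pair. The 18 measured genes of the T cell receptor complex summed to 2163 and 2267 FPKM in WT and to 1565 and 1600 FPKM in the Tbx21-KO pair. Among all 11013 genes with a mean of at least 1 FPKM, the Tbx21-KO libraries were higher in 30.1% and lower in 23.0% (limma on log2(FPKM + 1), Benjamini-Hochberg adjusted p under 0.05). In bulk RNA, more cells of a type and more RNA per cell cannot be told apart.

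Of the 8 members, 6 passed the filter of a mean of 1 FPKM, and all 6 were higher in Tbx21-KO, against 30.1% of all genes tested. Il5 and Il3 did not pass it. The 3 members already expressed in WT, with a WT mean of 1 FPKM or more, were Il13, Csf2 and Il24, and all 3 rose, where 26.2% of the 10254 tested genes of that class were higher. The other 5 were near 0 in WT, with a WT mean under 1 FPKM, and 3 of them, Il9, Areg and Il4, passed the filter and rose. A gene near 0 in WT passes only through high values in Tbx21-KO, and 83.0% of the 759 such genes tested were higher, so the rises from near 0 are read against that share. Areg, at a WT mean of 0.689 FPKM, lay nearest under the limit of 1 FPKM, and Il24, at 2.94 FPKM, nearest above it.

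**Figure D1:**
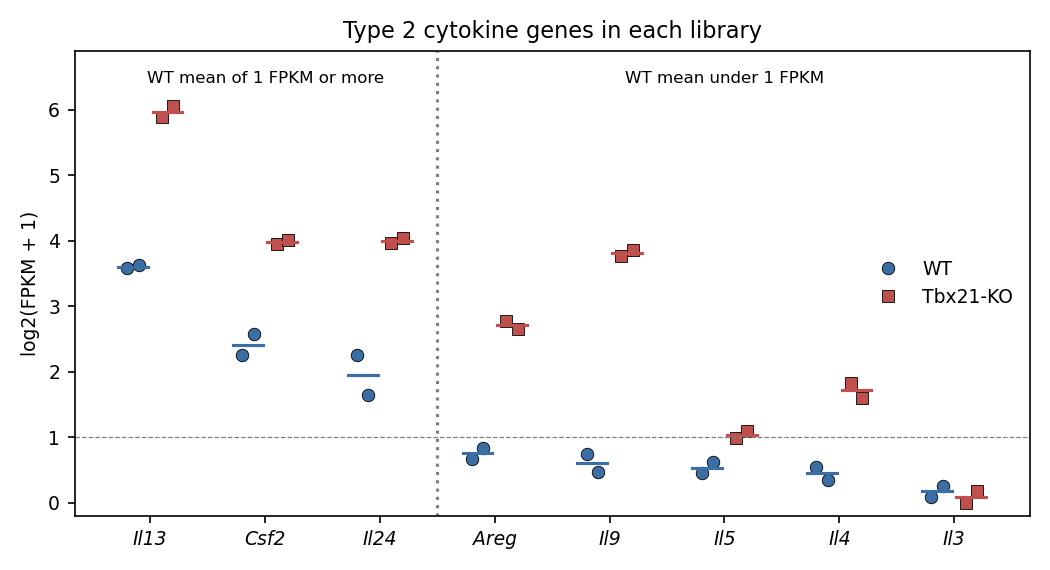
The log2(FPKM + 1) value of each type 2 cytokine gene in each library, with WT as circles, Tbx21-KO as squares and a bar at each group mean; the dashed line is 1 FPKM. In Il3 the groups overlap, and in the other genes both Tbx21-KO libraries lie above both WT libraries. How many of all genes separate in this way was not counted, and 30.1% of those tested were called higher.

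Il13 was the leading type 2 cytokine transcript of both groups. It encodes interleukin-13, which drives mucus production and alternative activation of macrophages (ENSMUSG00000020383, GRCm38 chromosome 11, 53631324 to 53634702, minus strand). Il13 was at 10.97 and 11.3 FPKM in the WT libraries and at 58.3 and 65.2 FPKM in the Tbx21-KO libraries. The groups were far apart, and the lowest Tbx21-KO library was 5.15 times the highest WT library. On the log2 scale the rise was 2.37 (SE 0.07, limma adjusted p = 3.43e-05), which 1.94% of all tested genes exceeded. Il13 made up 53.2% and 55.0% of the summed FPKM of the 8 members in WT 1 and 2 and 53.3% and 55.4% in Tbx21-KO 1 and 2. Its share among these genes thus stayed in the same range while their sum went from 20.6 FPKM in each WT library to 109.3 and 117.8 FPKM in the Tbx21-KO pair.

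Il4, the gene of interleukin-4, the cytokine that instructs helper T cells to become type 2 cells, was detected at a low level (ENSMUSG00000000869, chromosome 11, 53602982 to 53618669). Its values were 0.457 and 0.270 FPKM in the WT pair and 2.55 and 2.03 FPKM in the Tbx21-KO pair. Behind them are 14 and 8 reads of WT and 73 and 60 of Tbx21-KO, so that the WT level is poorly set. The Tbx21-KO mean was 6.30 times the WT mean, and on the log2 scale the change was 1.27 (SE 0.14, adjusted p = 0.00176), which is smaller because adding 1 FPKM before the logarithm damps low values. On recovered reads, tested with limma-voom, the log2 fold change of Il4 was 2.63 (SE 0.45, adjusted p = 0.000137). Per length, Il13 exceeded Il4 by 24 and 41.9 times in WT and by 22.9 and 32.1 times in Tbx21-KO, ranges that overlap. The upstream windows printed for this pair of neighbours both held several NFAT cores, 5 for Il4 and 4 for Il13, whereas GATAA was in that of Il13 alone of the 2.

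Il5 encodes interleukin-5, the growth and survival factor of eosinophils (ENSMUSG00000036117, chromosome 11, 53720794 to 53725106). It was at 0.365 and 0.539 FPKM in the WT pair and at 0.976 and 1.14 FPKM in the Tbx21-KO pair, from 14 and 20 reads and from 35 and 42 reads. The groups did not overlap, but the call depended on the test. With no filter on low values the log2 difference was 0.50 (SE 0.11, limma adjusted p = 0.0514), in a fit that called 15.6% of 24060 genes higher. With limma-voom on recovered reads and no filter, a test chosen after the data were seen, it was 1.23 (SE 0.28, adjusted p = 0.046), where 17.9% of 24720 genes were called higher. The ratio of means was 2.34 for Il5, against 5.54 for Il13 and 6.30 for Il4 of the same cluster, and these differences between genes were not tested.

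Il9 had the largest change of the 6. It encodes interleukin-9, a growth factor of mast cells made by a subset of helper T cells and by type 2 innate lymphoid cells (ENSMUSG00000021538, chromosome 13, 56479277 to 56482246). Il9 went from 0.673 and 0.387 FPKM in WT, which is 9 and 5 reads, to 12.6 and 13.5 FPKM in the Tbx21-KO pair, which is 158 and 174 reads. Both Tbx21-KO libraries were at least 18.8 times the highest WT library. Its log2 fold change of 3.21 (SE 0.11, adjusted p = 6.18e-05) was exceeded by 0.917% of all tested genes. Il9 was near 0 in WT and passed the filter through its Tbx21-KO values, so this rank is no independent support. Of the 759 tested genes near 0 in WT, 83.0% were higher, with a median log2 fold change of 1.24. In Tbx21-KO Il9 stood just under Csf2 and Il24, from which it had been well separated in WT.

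Areg, the amphiregulin gene, rose from the same low range (ENSMUSG00000029378, chromosome 5, 91139599 to 91148432). It was at 0.593 and 0.785 FPKM in the WT pair, from 18 and 23 reads, and at 5.85 and 5.27 FPKM in the Tbx21-KO pair, from 166 and 154 reads. The change on the log2 scale was 1.96 (SE 0.10, adjusted p = 0.000185), with a ratio of means of 8.08. Of the 6 genes of the epidermal growth factor ligand family with a row, Areg and Hbegf passed the filter. Both rose, beside 30.1% of all genes tested. Areg was near 0 in WT, a class in which 83.0% of the tested genes were higher. Hbegf, which encodes another ligand of the same receptor, went from 8.41 and 7.46 FPKM to 25.3 and 24.8 FPKM. Btc, Epgn, Ereg and Tgfa were under the filter, the highest value being 0.241 FPKM for Tgfa in WT 1. Egfr, the receptor gene, was under the filter as well, with means of 0.0213 FPKM (WT) and 0.146 FPKM (Tbx21-KO).

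Csf2 encodes GM-CSF, which promotes the growth and activation of granulocytes and macrophages (ENSMUSG00000018916, chromosome 11, 54247271 to 54249667). Csf2 was at 3.75 and 4.97 FPKM in the WT pair and at 14.5 and 15.1 FPKM in the Tbx21-KO pair, with no overlap. This is a log2 difference of 1.56 (SE 0.12, adjusted p = 0.000573). Gm12223, an antisense gene on the other strand, overlaps Csf2, and the strand setting of the counting is not known here, so the reads of these 2 genes cannot be told apart. Gm12223 was listed at 0.152 and 0.392 FPKM in the WT pair and at 0.649 and 0.552 FPKM in the Tbx21-KO pair.

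Il3, the gene of interleukin-3, a growth factor of basophils and mast cells, was the member with almost no reads (ENSMUSG00000018914, chromosome 11, 54265303 to 54267277). WT 1 and 2 had 1 and 3 reads (0.0637 and 0.198 FPKM), and Tbx21-KO 1 and 2 had 0 and 2 reads (0 and 0.132 FPKM). The groups overlap, and no library was above 3 reads, so no fold is given. At this depth 3 reads, the limit that a count of 0 allows, correspond to 0.204 FPKM in Tbx21-KO 1. A small difference in Il3 was therefore not detectable, although its neighbour Csf2 was well covered. Neither Tbx21-KO library exceeded the 3 reads of WT 2, so no large rise was seen. The limit of 3 reads covers counting error only.

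Il24, a cytokine gene of the IL-10 family that type 2 T cells also express, was the member with the widest spread in WT (ENSMUSG00000026420, chromosome 1, 130882074 to 130887454). It was at 3.76 and 2.12 FPKM in the WT pair, from 130 and 71 reads, and at 14.5 and 15.4 FPKM in the Tbx21-KO pair, from 470 and 512 reads. The lowest Tbx21-KO library was still 3.87 times the highest WT library. In log2 terms the rise was 2.05 (SE 0.20, adjusted p = 0.00138). Of the IL-10 family, Il22, which acts on epithelial barriers, rose as well, by 2.61 on the log2 scale. Il10, an anti-inflammatory cytokine, was lower instead, at 8.71 and 9.81 FPKM in the WT pair and 4.64 and 6.29 FPKM in the Tbx21-KO pair (log2 fold change -0.68, SE 0.14, adjusted p = 0.0136), though when libraries were scaled by the T cell receptor genes its fall was not called.

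FPKM values are per length, so the members can be ranked by level. In WT the order by mean was Il13 at 11.1 ± 0.24, Csf2 at 4.36 ± 0.86, Il24 at 2.94 ± 1.16, Areg at 0.689 ± 0.14, Il9 at 0.530 ± 0.20, Il5 at 0.452 ± 0.12, Il4 at 0.364 ± 0.13 and Il3 at 0.131 ± 0.09 FPKM (SD, n = 2). The steps from Il13 to Csf2, from Il24 to Areg and from Il4 to Il3 were wider than the spread between libraries. The libraries of Csf2 and Il24 overlapped slightly, and those of Areg, Il9, Il5 and Il4 formed a chain of overlaps. In Tbx21-KO the order was Il13 at 61.7 ± 4.92, Il24 at 14.9 ± 0.60, Csf2 at 14.8 ± 0.44, Il9 at 13.1 ± 0.62, Areg at 5.56 ± 0.41, Il4 at 2.29 ± 0.36, Il5 at 1.06 ± 0.11 and Il3 at 0.0662 ± 0.09 FPKM (SD, n = 2). There Il24 and Csf2 overlapped and every other pair of neighbours was separate. For comparison with the main type 1 cytokine, Ifng was at 68.2 and 51.4 FPKM in the WT pair and 22.5 and 23.5 FPKM in the Tbx21-KO pair. The ratio of Il13 to Ifng was thus 0.161 and 0.220 in WT and 2.59 and 2.77 in Tbx21-KO.

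**Figure D2:**
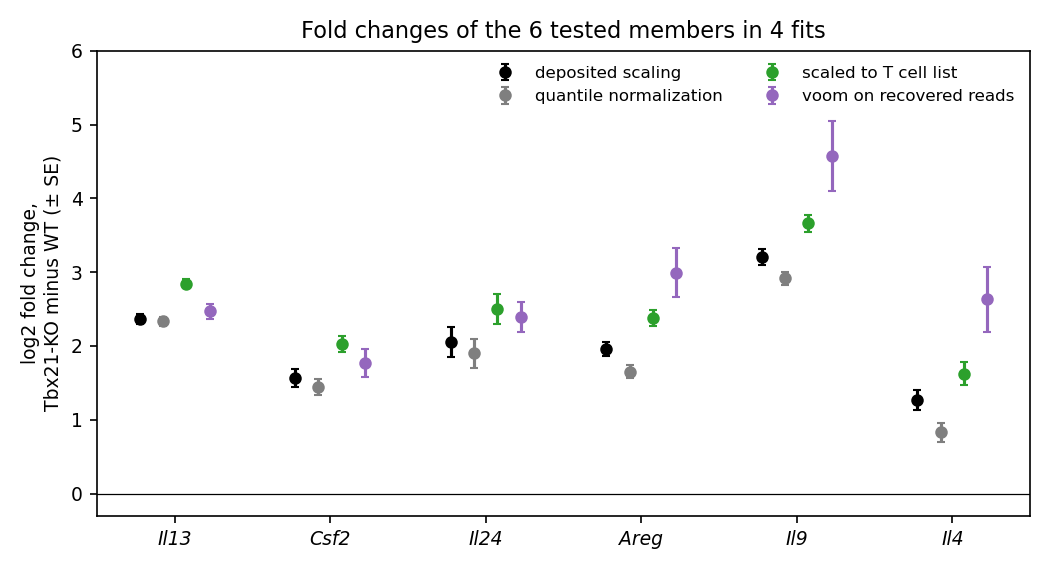
Log2 fold changes of the 6 tested members, Tbx21-KO minus WT, with standard errors, in 4 fits: the deposited scaling, quantile normalization, scaling by the T cell receptor genes, and voom on recovered reads. All points lie above 0; voom, which adds no pseudocount of 1 FPKM, moves Il9, Areg and Il4 most.

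The 6 rises were called under each scaling of the libraries that was tried. When each library was divided by its sum over the T cell receptor genes (the T cell list scaling), the log2 fold changes of the 6 members ran from 1.62 for Il4 to 3.66 for Il9, and all 6 were called, beside 72.7% of all genes tested with that scaling. The median log2 fold change of all genes was 0.04 as deposited, and quantile normalization moved it to -0.10 and the T cell list scaling to 0.47. After quantile normalization the members' changes ran from 0.83 for Il4 to 2.92 for Il9.

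The receptors of these cytokines moved unevenly. Of 11 with a row, 7 were tested, 4 were higher and 3 lower, against 30.1% and 23.0% of all genes. The 4 that rose are chains of the receptors of GM-CSF and IL-3, and 1 of them, Csf2rb, also serves IL-5. Il5ra, the chain specific to IL-5, had no row and was not measured here. Csf2rb, the shared chain, went from 2.13 and 2.24 FPKM to 37.8 and 37.6 FPKM. Csf2ra, the GM-CSF chain, went from 4.202 and 4.68 FPKM to 39.1 and 36.9 FPKM, and Csf2rb2, a close copy of Csf2rb with which it may share reads, from 0.782 and 1.25 FPKM to 15.1 and 14.3 FPKM. Il3ra rose by 0.49 on the log2 scale. These receptor chains are also expressed by myeloid cells, whose markers were high in the same libraries, and their part in the result was not tested. Il4ra, the chain that binds IL-4 and serves IL-13 as well, and Il2rg, the common gamma chain, were lower by small amounts, with log2 fold changes of -0.15 and -0.26, and both turned higher with the T cell list scaling, at 0.32 and 0.22. Il20rb, a chain of the IL-24 receptor, was the third lower gene, at -0.36, and was not called with that scaling. Il9r and Il13ra1 were under the filter, Il9r with means of 0.120 and 0.634 FPKM and Il13ra1 with 0.121 and 0.994 FPKM in WT and Tbx21-KO.

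Regulators known from type 2 T cells were mostly well expressed in both groups. Of 20 tested, 12 were higher, 3 were lower and 5 were not called, beside 30.1% higher and 23.0% lower among all genes. The count moved with the scaling: with the T cell list scaling 18 were higher and 1 lower, beside 72.7% of all genes higher. Gata3, the leading factor of the type 2 programme, was at 7.43 and 7.19 FPKM in the WT pair and at 6.91 and 6.29 FPKM in the Tbx21-KO pair and was not called (log2 fold change -0.13, SE 0.06, adjusted p = 0.151), and it was called lower after quantile normalization, at -0.27, and higher with the T cell list scaling, at 0.30. Stat6, which carries the IL-4 signal, was not called either, at 42.9 and 41.9 FPKM in the WT pair and 43.2 and 41.9 FPKM in the Tbx21-KO pair, but was called higher under the T cell list scaling, at 0.48. Maf, a transcription factor that acts on the Il4 promoter, rose from 2.91 and 2.796 FPKM to 17.9 and 17.1 FPKM. Rora, a factor of type 2 innate lymphoid cells and of type 17 cells, rose by 1.51 on the log2 scale, Gfi1 by 1.08, Irf4 by 0.69, Stat5b by 0.65 and Batf by 0.45. Spi1, which encodes PU.1, a factor of IL-9-producing T cells and the main factor of myeloid cells, was at 0.253 and 0.384 FPKM in the WT pair and at 34.2 and 33.1 FPKM in the Tbx21-KO pair, the same libraries in which the neutrophil markers were high. The 3 lower genes were Foxo1, Nfatc1 and Ikzf1, with log2 fold changes of -0.93, -0.58 and -0.19, of which Ikzf1 turned to 0.28 and Nfatc1 was no longer called with the T cell list scaling.

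Surface molecules of type 2 lymphocytes gave 7 higher, none lower and 1 not called among 8 tested, beside 30.1% higher and 23.0% lower among all genes. Of the 7, Il17rb and Ccr8 were near 0 in WT, a class in which 83.0% of the tested genes were higher. Il7r, the interleukin-7 receptor chain, went from 5.52 and 5.70 FPKM to 45.0 and 42.5 FPKM, and Il17rb, a chain of the interleukin-25 receptor, from 0.875 and 0.626 FPKM to 7.44 and 6.77 FPKM. The chemokine receptor gene Ccr4 rose by 2.56 on the log2 scale and Ccr8 by 0.85. Il1rl1, the interleukin-33 receptor, changed little, at 2.63 and 2.51 FPKM in the WT pair and 3.59 and 3.18 FPKM in the Tbx21-KO pair (log2 fold change 0.29, adjusted p = 0.0338), and after quantile normalization neither it nor Ccr8 was called. Ptgdr2, a prostaglandin receptor of type 2 cells, was under the filter, with means of 0.131 FPKM (WT) and 0.256 FPKM (Tbx21-KO).

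**Figure D3:**
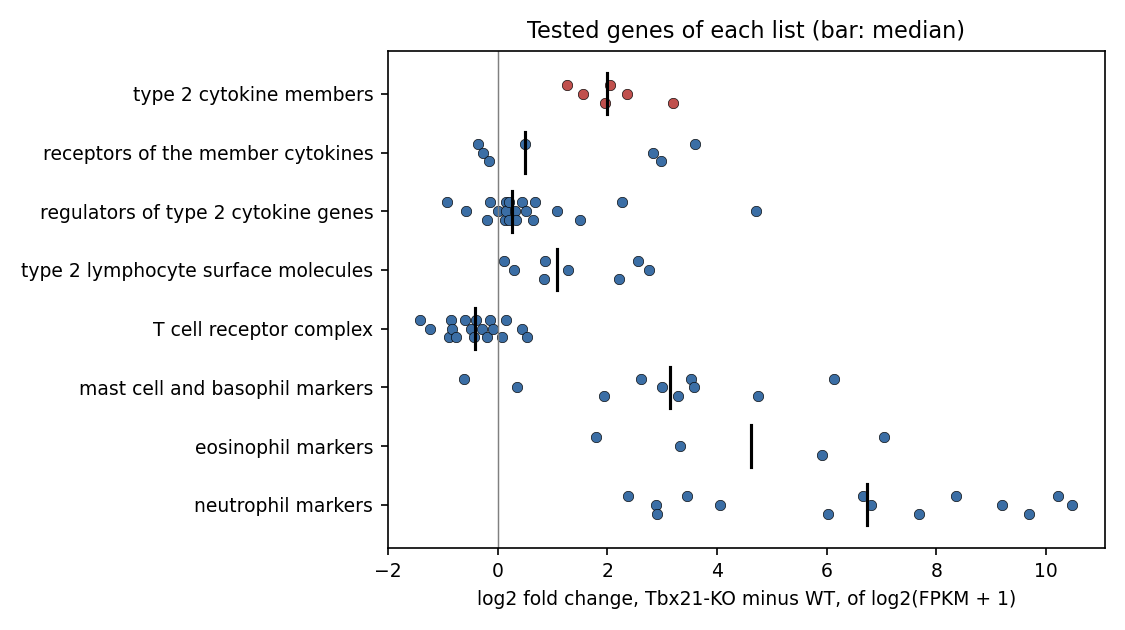
Log2 fold changes, Tbx21-KO minus WT, of every tested gene in 8 lists, 1 point per gene, with a bar at the list's median; points are spread vertically only to keep them apart. The 6 tested type 2 cytokine genes lie between 1.27 and 3.21, above most regulators and below most neutrophil markers.

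Basophils, mast cells and eosinophils also transcribe type 2 cytokine genes, so their markers are given beside the members. Of 16 mast cell and basophil markers with a row, 10 were tested, 8 were higher, 1 was lower and 1 was not called, beside 30.1% higher and 23.0% lower among all genes. Of the 8, 5 (Cd200r3, Hdc, Tpsb2, Gata2 and Fcer1a) were near 0 in WT and passed the filter through their Tbx21-KO values, where 83.0% of such genes were higher. The list summed to 26.3 and 28.1 FPKM in WT and to 403.7 and 409.7 FPKM in the Tbx21-KO pair. The basophil proteases led: Mcpt8 was at 2.57 and 3.61 FPKM in the WT pair and 108.0 and 109.2 FPKM in the Tbx21-KO pair, and Prss34 at 1.55 and 2.35 FPKM, then 200.2 and 207.0 FPKM. Fcer1a, the binding chain of the IgE receptor, rose 20.1-fold by its mean, to 11.2 and 11.8 FPKM. The mast cell proteases were uneven. Cpa3, a carboxypeptidase of mast cells that basophils also express, went from 2.32 and 2.21 FPKM to 37.3 and 35.8 FPKM, and the tryptase gene Tpsb2 from 0.0371 and 0.0767 FPKM to 5.55 and 5.47 FPKM. The chymase gene Cma1 was not called, at 0.597 and 1.39 FPKM in the WT pair and 1.76 and 1.24 FPKM in the Tbx21-KO pair, and was called higher under the T cell list scaling, at 0.66. The protease genes Mcpt1, Mcpt2, Mcpt4 and Tpsab1 and the receptor gene Mrgprb2 were listed at 0 in both WT libraries and averaged 0.109 FPKM at most in Tbx21-KO. Kit, which mast cells and their precursors carry, was lower, with means of 17.6 ± 0.62 FPKM (WT) and 11.1 ± 0.16 FPKM (Tbx21-KO) (SD, n = 2), and was not called when libraries were scaled by the T cell receptor genes.

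Of 9 eosinophil markers with a row, 4 were tested (Prg2, Prg3, Epx and Ear6), and all 4 were higher. All 4 were near 0 in WT and passed the filter only through Tbx21-KO, a class in which 83.0% of the tested genes were higher. The list summed to 0.789 and 1.06 FPKM in WT and to 289.2 and 280.9 FPKM in the Tbx21-KO pair. Epx, the eosinophil peroxidase gene, was at 0.102 and 0.242 FPKM in the WT pair and at 73.3 and 66.1 FPKM in the Tbx21-KO pair. The other markers were under the filter. Ear2 had means of 0.0288 FPKM (WT) and 1.59 FPKM (Tbx21-KO), and Siglecf had 0.0361 and 1.44 FPKM. Alox15 had means of 0.0250 and 0.630 FPKM, and Ear1 had 0 and 0.290 FPKM. Ccr3, the eotaxin receptor, was near 0 in both groups, with means of 0.0870 FPKM (WT) and 0.187 FPKM (Tbx21-KO). By ratio of means, the summed mast cell and basophil list was 14.96 times and the eosinophil list 308.1 times the WT level. The 7 members other than Il3 ran from 2.34 to 24.7 times. Kit, which was lower, had a WT mean of 17.6 FPKM and so pulls down the ratio of the first list. The tested genes of that list ran from 0.631 times for Kit to 115.7 times for Gata2, which was near 0 in WT. All 6 monocyte and macrophage markers tested were higher, 2 of them near 0 in WT. Among all genes tested 30.1% were higher, and 83.0% of those near 0 in WT. The 7 markers with a row summed to 179.4 and 180.3 FPKM in the WT pair and to 444.5 and 474.7 FPKM in the Tbx21-KO pair. Most of the WT sum was Ly6c2, at 163.9 and 161.9 FPKM. The ratios of means of the 6 ran from 1.15 for Ly6c2 to 90.2 for Itgam, which was near 0 in WT. Of 8 markers of group 2 innate lymphoid cells, 7 were higher, 3 of them near 0 in WT, and Gata3 was not called. These counts stand beside the same shares of 30.1% and 83.0%. The 8 markers summed to 104.3 and 99.0 FPKM in the WT pair and to 219.9 and 219.5 FPKM in the Tbx21-KO pair. Most of this was Cxcr6, at 82.9 and 78.4 FPKM in the WT pair and 135.2 and 138.5 FPKM in the Tbx21-KO pair. Of the 8, 5 stand in the lists of regulators and surface molecules above, and T cells express them too. The part of each of these cell types in the members' rises was not tested.

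Since 5 of the members lie on chromosome 11, the genes between and beside them were followed by position, from 50 kb beyond Il4 to Il3 (chromosome 11, 53552982 to 54267277). The interval has 24 genes with a row. Of the 19 that are not members, 9 were tested. Of the 9, 7 (Kif3a, Rad50, Irf1, Gm17334, Slc22a5, Slc22a21 and Slc22a4) were higher and none was lower. Among all genes tested, 30.1% were higher and 23.0% lower. Of the 7, Slc22a21 and Slc22a4 were near 0 in WT and passed the filter through Tbx21-KO, where 83.0% of such genes were higher. Of the 7 tested neighbours already expressed in WT, 5 were higher and 2 not called, beside 26.2% higher among all genes of that class. With quantile normalization 4 of the 9 were higher and 2 lower, beside 2438 higher and 3801 lower among all 11013 genes. With the T cell list scaling 8 were higher and none lower, beside 72.7% higher among all genes tested with that scaling. Next to Il4, the kinesin gene Kif3a went from 2.25 and 1.88 FPKM to 5.07 and 4.87 FPKM (log2 fold change 0.96, SE 0.09, adjusted p = 0.000965). Rad50, the DNA repair gene whose introns hold control elements of the cluster, lies between Il13 and Il5 and moved little, by 0.20 on the log2 scale (SE 0.05, adjusted p = 0.0293). Irf1, an interferon response factor beyond Il5, rose by 0.38. Slc22a4, a transporter gene between Irf1 and Csf2, was near 0 in WT, at 0.0314 and 0.0812 FPKM, and reached 3.67 and 2.79 FPKM in the Tbx21-KO pair. P4ha2, at 0.03, and Gm12216, at -0.31 on the log2 scale, were not called, and were called lower after quantile normalization, at -0.19 and -0.65. With the T cell list scaling P4ha2 was called higher, at 0.44, and Gm12216 was not called. The changes were thus uneven along the interval, with Il13 highest, and Il3 at its far end had almost no reads.

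**Figure D4:**
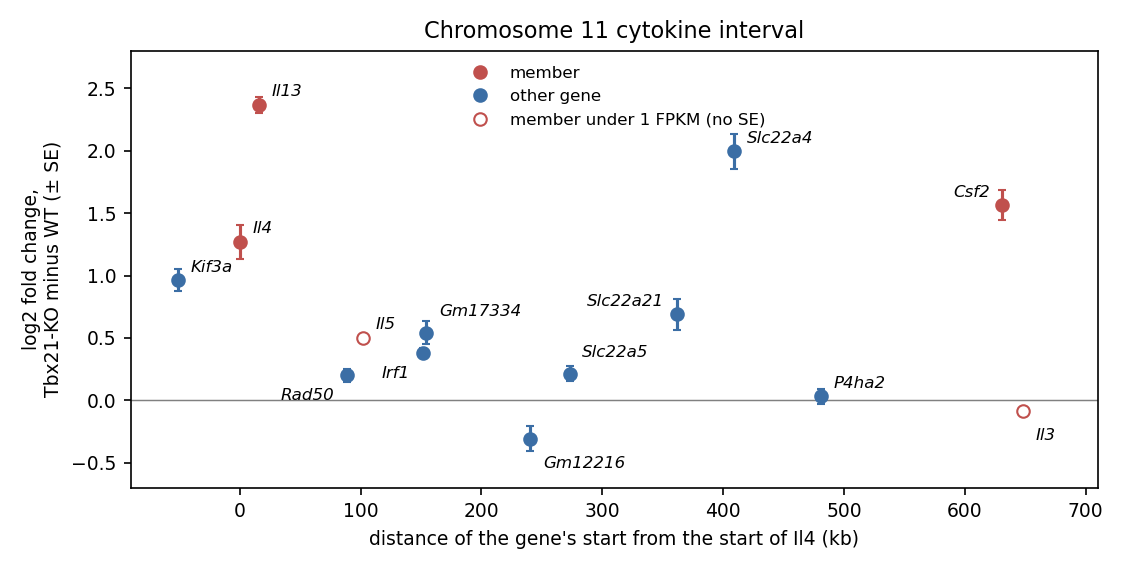
Log2 fold change, Tbx21-KO minus WT, of the genes of the chromosome 11 cytokine interval against the distance of each gene's start from that of Il4 in kb; bars are standard errors, and the open points are the untested members Il5 and Il3. Il13 has the largest value at 2.37, Slc22a4 follows at 1.99, and Rad50 between the cytokine genes lies at 0.20.

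Genes with the most similar values over the 4 libraries were sought among the 11012 other tested genes, by the distance of their log2(FPKM + 1) values. Nearest to Il13, which of the members already expressed in WT had the highest mean over the 4 libraries, were Enpp2, Ckb and Avpi1, at distances of 0.155, 0.296 and 0.311. Enpp2, which encodes the enzyme autotaxin, was at 11.7 and 12.0 FPKM in the WT pair and 58.0 and 60.7 FPKM in the Tbx21-KO pair. Nearest to Il9, which of the members near 0 in WT had the highest mean over the 4 libraries, were Sirpa, Ccl9 and Tbc1d8, at 0.279, 0.308 and 0.317. Sirpa, an inhibitory receptor of myeloid cells, was at 0.530 and 0.608 FPKM in the WT pair and 13.6 and 12.7 FPKM in the Tbx21-KO pair. The likeness describes 4 values in 2 groups and is no test.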

How the data were processed

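RNA was measured in 4 libraries of mouse T cells, 2 per group, grouped by their titles. The authors deposited 1 table of FPKM per Ensembl gene and library. Per the submitters' processing notes the builds were GRCm38 and mm10. Which aligner, counting tool, strand setting and annotation they used was not given in the sources used here. Of 24769 rows, the last is cut short and was dropped, which left 24768. Symbols, positions and summed exon lengths came from GENCODE mouse release M21 (GRCm38), which matched 24720 IDs. With these lengths, 96.8% to 97.3% of the values under 20 reads came out whole within 0.1 read, which gave the reads quoted and the totals.

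Tbx21-KO was compared with WT by limma 3.58.1 in R 4.3.3 on log2(FPKM + 1), a pseudocount of 1, with an intensity trend, over the 11013 genes whose mean was at least 1 FPKM, adjusted over these genes by Benjamini-Hochberg with a threshold of 0.05. The steps were tested on simulated data. Fold changes on this scale understate changes of low genes. An exact permutation test was not used, since its smallest two-sided p with 2 libraries a group is 0.33. Replicates varied beyond counting noise (median chi-square per gene 1.31 and 1.21, against 0.46). Alternatives were other pseudocounts, filters, scalings, voom, a replicate block and each library left out. The members, the lists and the rule for named genes were chosen with earlier results of these data known. Named genes are the members, the genes of the chromosome 11 interval, the 3 most similar genes, and called genes of the lists; the few uncalled list genes, Cd3e, Cd4 and Cd8b1 were added after their values were seen.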

Additional observations from a re-analysis of the deposited data

How the results depend on the processing

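The 6 tested members were higher, with an adjusted p under 0.05, in each alternative in which they passed its filter. Il4 did not pass it without Tbx21-KO replicate 1, and neither Il4 nor Areg passed a mean of at least 5 FPKM. Over all genes tested, the count of higher genes was 3315, and it was 2018 at a mean FPKM of at least 5 and 8359 under the T cell list scaling. The count of lower genes was 2531, and it was 3801 after quantile normalization and 494 under the T cell list scaling. The share of calls that were higher was 56.7%, against 39.1% after quantile normalization and 94.4% with the T cell list scaling. With voom on recovered reads and no filter, a test chosen after the data were seen, 7 members were called. That fit called 17.9% of 24720 genes higher. Il5 was among the 7, at a limma-voom adjusted p of 0.046, against a limma adjusted p of 0.0514 in the planned fit with no filter.

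A replicate block called the same 6 members and 3245 genes higher. Deviations of libraries with the same replicate number correlated at -0.025 over 11013 genes, and those with crossed numbers at 0.025. With 2 libraries per group these values mirror each other. They cannot tell whether libraries with the same number share an animal, culture or batch. The pseudocount set the size of the low members' changes: for Il4 the log2 fold change was 2.39 with 0.1 and 0.44 with 5, for Il9 4.42 and 1.71, and for Areg 2.85 and 0.89. Without WT replicate 1 or 2, Il24 was at 2.35 or 1.75. Depth limits Il4, Il5, Il9 and Areg in WT, with 5 to 23 reads per library, and Il3 in all 4 libraries.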
